A study of Mus musculus with 15 samples.

Results

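Transcripts of the interferon-induced transmembrane protein (IFITM) family and of tetherin were followed across 3 dendritic cell subsets of the mouse thymus, with and without the kinase LKB1. The 6 genes are Ifitm1, Ifitm2, Ifitm3, Ifitm6, Ifitm10 and Bst2, which encodes tetherin. They were chosen by name from the 22165 genes of the count table, with earlier results of these data already known. Their own differences are therefore given as descriptions and no test is read from them. Of the 6 genes, 5 passed the filter on low counts that left 11746 genes for testing. Ifitm10 did not, with 6 counts in all 15 libraries.

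KO mice carried Itgax-cre and a floxed Stk11 gene on both alleles (Stk11 fl/fl), which removes LKB1 from cells in which the Itgax (CD11c) promoter is active. The controls are labelled WT, and the labels do not say whether they carried Cre or a floxed allele. All were C57BL/6 mice, male and female, 8 to 12 weeks old. All had also received a subcutaneous B16 melanoma secreting Flt3L, the cytokine on which dendritic cell numbers depend, and thymi were taken 9 to 12 days later. Sorting gave type 1 conventional dendritic cells (cDC1, by CD8a), type 2 cells (cDC2, by CD11b) and plasmacytoid dendritic cells (pDC, by Siglec-H and intermediate CD11c). Tetherin was not among the sort markers. There were 2 libraries each of cDC1 KO, cDC1 WT and cDC2 WT, and 3 each of cDC2 KO, pDC KO and pDC WT.

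IFITM proteins are small membrane proteins that block many enveloped viruses as these fuse with cellular membranes. Ifitm3 acts mainly in late endosomes and lysosomes, and Ifitm1 closer to the cell surface. Tetherin is anchored in the membrane at both of its ends and holds budding virus particles to the surface of the infected cell. Interferon is known to raise Ifitm1, Ifitm2, Ifitm3 and Bst2, and DNA elements through which it acts on genes include the interferon-stimulated response element (ISRE) and the gamma-activated site (GAS). In mice, tetherin is also the antigen of the classical pDC antibodies against PDCA-1, and resting pDC carry it in abundance.

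Ifitm1, Ifitm2, Ifitm3 and Ifitm6 lie within 63.1 kb of chromosome 7 (GRCm38, GENCODE M21). Ifitm2 spans chr7:140954837-140955987 on the minus strand, Ifitm1 chr7:140967221-140969825 on the plus strand, Ifitm3 chr7:141009586-141010770 and Ifitm6 chr7:141015699-141017924, both on the minus strand. Ifitm10 lies apart on the same chromosome (chr7:142325837-142373753, minus strand) and Bst2 on chromosome 8 (chr8:71534255-71537456, minus strand). The promoter windows below are RefSeq sequences of build GRCm38.p6, from 250 bases before to 50 bases after the start, 5′ to 3′ on the gene's strand. They are shown for the interferon-response motif: the windows of Ifitm2, Ifitm3 and Bst2 hold its core, and those of Ifitm1 and Ifitm6 do not. The windows differ in where they sit. The RefSeq start lies 26 bases inside the GENCODE gene for Ifitm2 and Ifitm3 and 16 bases before it for Bst2, but 855 bases inside it for Ifitm1 and 1032 for Ifitm6. The absence of a core in the last 2 windows therefore says nothing of the sequence before the GENCODE start of those genes. Capitals mark ISRE cores.
Ifitm2: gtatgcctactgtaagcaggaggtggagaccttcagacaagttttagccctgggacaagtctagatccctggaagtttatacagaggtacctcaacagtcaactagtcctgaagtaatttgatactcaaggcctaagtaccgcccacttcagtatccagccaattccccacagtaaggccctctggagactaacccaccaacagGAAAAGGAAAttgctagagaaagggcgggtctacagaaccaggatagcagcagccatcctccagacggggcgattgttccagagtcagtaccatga
Ifitm3: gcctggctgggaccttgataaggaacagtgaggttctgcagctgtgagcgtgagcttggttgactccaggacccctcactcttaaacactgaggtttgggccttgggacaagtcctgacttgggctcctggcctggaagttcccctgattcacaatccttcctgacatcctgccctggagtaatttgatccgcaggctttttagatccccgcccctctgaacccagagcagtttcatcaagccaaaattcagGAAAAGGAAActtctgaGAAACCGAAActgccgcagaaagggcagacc
Bst2: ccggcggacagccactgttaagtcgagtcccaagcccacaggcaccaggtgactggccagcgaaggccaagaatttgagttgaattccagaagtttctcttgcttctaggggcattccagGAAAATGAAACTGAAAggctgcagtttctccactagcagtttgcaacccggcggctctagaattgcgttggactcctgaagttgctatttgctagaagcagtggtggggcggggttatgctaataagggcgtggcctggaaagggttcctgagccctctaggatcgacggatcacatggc
Ifitm1: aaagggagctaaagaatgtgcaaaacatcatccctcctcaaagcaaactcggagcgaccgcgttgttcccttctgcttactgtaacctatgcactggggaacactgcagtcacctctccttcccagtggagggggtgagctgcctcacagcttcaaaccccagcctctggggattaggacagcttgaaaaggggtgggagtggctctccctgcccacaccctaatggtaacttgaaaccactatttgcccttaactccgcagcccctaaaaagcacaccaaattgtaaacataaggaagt
Ifitm6: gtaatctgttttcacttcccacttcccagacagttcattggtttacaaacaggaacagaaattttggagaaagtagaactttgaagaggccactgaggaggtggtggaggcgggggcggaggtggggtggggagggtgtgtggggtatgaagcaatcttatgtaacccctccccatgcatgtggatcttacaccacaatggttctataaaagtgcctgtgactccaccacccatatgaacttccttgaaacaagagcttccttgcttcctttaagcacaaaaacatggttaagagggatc
The windows are chr7:140955912-140956211 for Ifitm2, chr7:141010695-141010994 for Ifitm3, chr8:71537423-71537722 for Bst2, chr7:140967826-140968125 for Ifitm1 and chr7:141016843-141017142 for Ifitm6. The Ifitm1 window is on the plus strand and the others are on the minus strand.

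The ISRE core was searched as GAAANNGAAA on both strands, and 3.43% of the 32817 windows in the table hold at least 1. Ifitm2 holds 1 (GAAAAGGAAA at position -46 from the start). Ifitm3 holds 2 (GAAAAGGAAA at 3 and GAAACCGAAA at 20), both just after the start that RefSeq gives. Bst2 also holds 2, which overlap (GAAAATGAAA at -130 and GAAACTGAAA at -124), and 0.222% of all windows hold 2 or more. The GAS core TTCNNNGAA, present in 8.29% of windows, was found in Ifitm3 (at 14, overlapping the second ISRE core), Bst2 (at -136) and Ifitm6 (at -10). The TATA box, TATAAA, present in 13.6% of windows on either strand, was found in Ifitm6 at -46 and, on the opposite strand, in Ifitm2 at -175. None of the 3 windows of Ifitm10 holds an ISRE core. These matches describe the letters only. A window without a match says nothing of regulation from elsewhere.

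Library totals ran from 3928164 (cDC2 WT 1) to 12142712 counts (cDC2 KO 2). The counts come from 3′ tags, so levels are given as CPM (depth-scaled counts, after TMM scaling) and are compared for 1 gene between groups, never between genes. The 10 pDC markers summed to 35962 to 56025 CPM in pDC and at most 1852 CPM elsewhere. The 10 cDC1 markers summed to 6284 to 10209 CPM in cDC1 and 1913 to 3767 CPM in cDC2, and the 10 cDC2 markers to 1238 to 1821 CPM in cDC2 and 336 to 518 CPM in cDC1. In pDC the cDC1 list summed to 6105 to 8714 CPM and the cDC2 list to 798 to 1290 CPM. These lists therefore set apart only the conventional subsets from each other. For 6 of the 10 markers of each of these lists, every library of the named subset lay above every library of the other conventional subset. Wdfy4, Batf3, Itgae and Tlr3 of the cDC1 list and Irf4, Clec4a4, Tnfsf9 and Ccr2 of the cDC2 list overlapped between the conventional subsets. At an equal depth of 3928164 counts, the cDC2 WT libraries detected 10840 and 11351 genes and the cDC2 KO libraries 12441 to 12775. Stk11 itself was at 24.5 ± 8.65 CPM in cDC1 KO against 44.9 ± 13.2 in WT (SD, n = 2 each), 31.2 ± 4.29 (n = 3) against 34.6 ± 0.501 (n = 2) in cDC2, and 37.8 ± 5.25 against 51.4 ± 13.7 in pDC (n = 3 each). It was called in none of the 3, and 3′ tags need not cover a deleted part, so this does not check the deletion. The labels do not say that replicates came from separate mice, so p-values measure the spread between samples. A lower level in a sorted population can come from fewer cells expressing a gene or from less RNA per cell, and these cannot be told apart.

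Ifitm3 was detected in every library and stood highest in cDC2. The 3 cDC2 KO libraries held 360, 549 and 455 CPM and the 2 cDC2 WT libraries 166 and 176 CPM. In cDC1, the KO libraries were at 78.4 and 77.9 CPM and the WT libraries at 33.3 and 43.1 CPM. Within both conventional subsets every KO library lay above every WT library. In pDC, the KO libraries were at 36.6, 48.6 and 25.7 CPM and the WT libraries at 22.9, 22.1 and 6.91 CPM. The pDC groups did not overlap either, though pDC KO 3 lay close to the highest WT library. Ifitm3 is the family member best known for restricting influenza virus.

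On the log2 scale, the fitted Ifitm3 difference between KO and WT was 1.03 ± 0.44 (SE; 2.04-fold) in cDC1, 1.41 ± 0.41 (2.66-fold) in cDC2 and 1.10 ± 0.36 (2.14-fold) in pDC. Ifitm3 was the only member whose KO libraries lay above the WT libraries in all 3 subsets, which 0.443% of the tested genes did. Offsets for transcript length and GC content lowered its cDC2 difference to 0.81, while 1.11 in cDC1 and 0.90 in pDC stayed near the values without them. With the pDC WT 3 library left out, the pDC difference was 0.70.

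Ifitm2, which acts on late endosomal entry as Ifitm3 does, had the same direction. The cDC2 KO libraries held 72.0, 88.2 and 82.8 CPM against 17.2 and 18.1 CPM in WT. The cDC1 KO libraries held 47.2 and 42.4 CPM against 13.1 and 9.28 CPM in WT. In these 2 subsets no KO library came near a WT library: the log2 difference was 2.20 ± 0.67 (SE; 4.58-fold) in cDC2 and 2.00 ± 0.71 (4.01-fold) in cDC1. In pDC, Ifitm2 was close to the detection limit, with 3.45, 5.14 and 0.175 CPM in KO and 0, 0 and 0.680 CPM in WT. The pDC groups overlapped, because pDC KO 3 lay below pDC WT 3. The 61 KO counts against 6 WT counts gave a log2 difference of 3.52 ± 0.87 in pDC (SE; 11.5-fold), and all 6 WT counts came from pDC WT 3. With length and GC offsets the cDC2 difference was 1.52.

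Ifitm1 was highest in cDC2 KO in all 3 libraries of that group. Its level there was 31.8, 24.7 and 19.9 CPM, against 2.67 and 3.92 CPM in cDC2 WT, a log2 difference of 2.93 ± 0.98 (SE; 7.63-fold). In cDC1 the KO libraries held 6.93 and 5.69 CPM and the WT libraries 2.11 and 0.364 CPM, a log2 difference of 2.39 ± 1.09 (5.24-fold). The cDC1 WT group rested on 11 counts, and the difference was 4.05 with cDC1 WT 1 left out and 1.58 with cDC1 WT 2 left out. In pDC, Ifitm1 had 10 counts in KO, all in pDC KO 2, and 3 counts in WT, all in pDC WT 1. The ratio of those counts per effective depth was 4.13, with a 95% interval of 1.06 to 23.3 that covers counting error only. No direction in pDC can be read from them, since 4 of the 6 pDC libraries were at 0.

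Ifitm6, a myeloid member of the mouse family, was highest in cDC2, in both genotypes. The cDC2 KO libraries held 19.8, 24.6 and 15.1 CPM and the cDC2 WT libraries 9.71 and 6.18 CPM. The groups did not overlap, with a log2 difference of 1.33 ± 0.95 (SE; 2.51-fold). In cDC1 there were 13 counts in KO and 3 in WT, a ratio of 2.92 with a 95% interval of 0.801 to 16.0. In pDC all 15 counts came from pDC KO 2 and the other 5 pDC libraries had none. Over the group, this is at least 6.19-fold higher than a floor of 3 WT counts, and without pDC KO 2 both groups are at 0.

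Ifitm10, a distant and poorly studied relative, was at the detection limit everywhere. It had 4 counts in cDC1 KO (0.392 and 0.146 CPM), 2 in cDC2 KO, both in replicate 2, and 0 in the other 4 groups. A count of 0 over pDC WT allows up to 0.124 CPM and one over cDC1 WT up to 0.307 CPM. No fold is given for it.

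Bst2 had another distribution: it was highest in pDC. The pDC KO libraries held 264, 327 and 208 CPM and the pDC WT libraries 164, 172 and 131 CPM, so the groups did not overlap. The log2 difference was 0.78 ± 0.27 (SE; 1.71-fold), and 0.60 without pDC KO 2. In cDC2, the KO libraries were close together at 54.1, 53.7 and 56.0 CPM and the WT libraries were apart at 36.4 and 18.5 CPM. That difference, 1.00 ± 0.31 (2.00-fold), rested on the WT pair: it was 1.57 without cDC2 WT 1, 0.60 without cDC2 WT 2 and 0.31 with length and GC offsets. In cDC1 the KO libraries held 50.2 and 48.4 CPM and the WT libraries 45.7 and 49.0 CPM. These overlapped, and the log2 difference was 0.06 ± 0.33. The genotype difference of Bst2 in cDC2 exceeded that in cDC1 by 0.94 ± 0.45 on the log2 scale (0.15 with the offsets), and the difference in pDC minus that in cDC2 was -0.22 ± 0.40. Neither interaction was called.

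**Figure D1:**
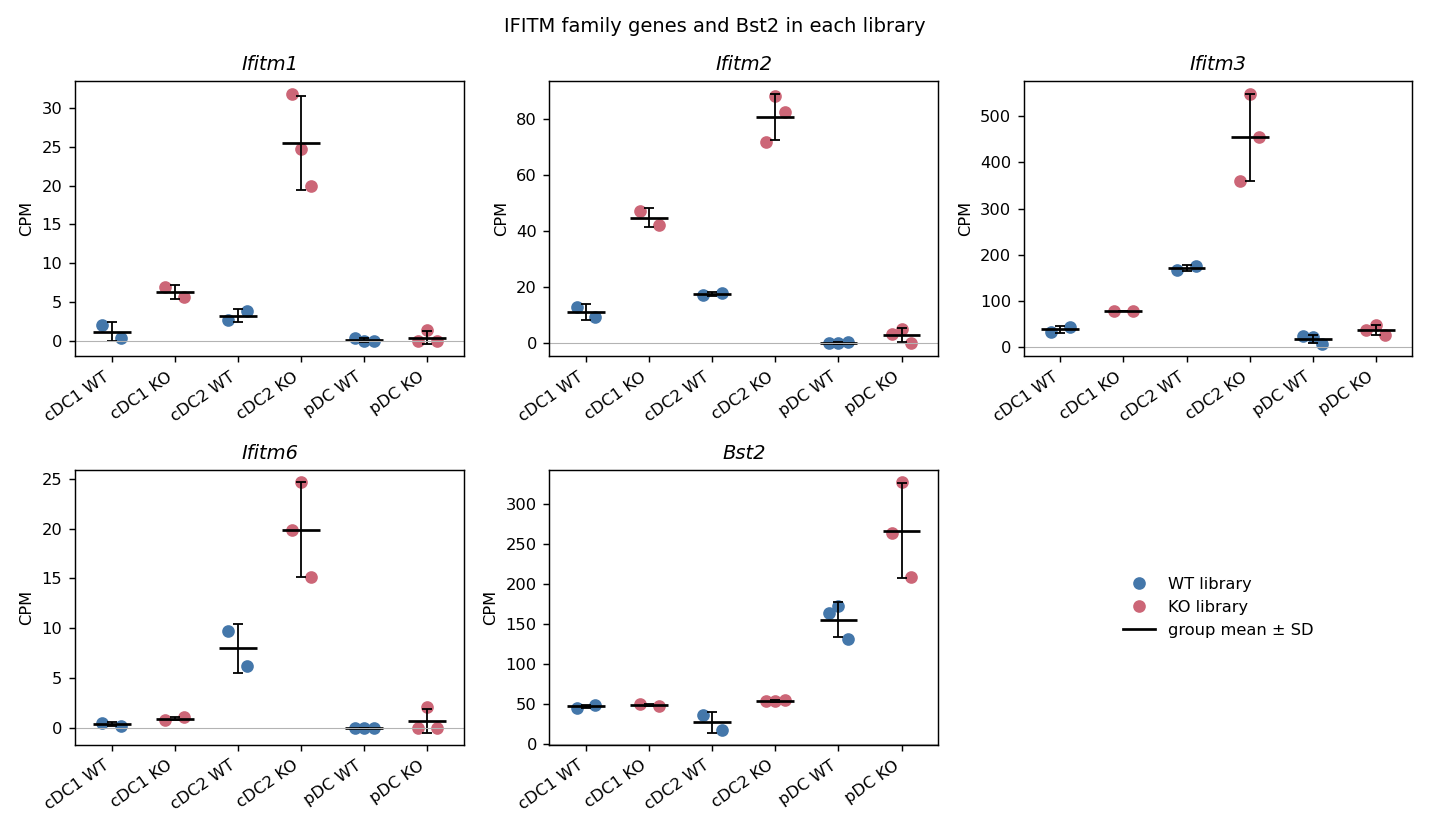
Level of the 5 tested members in each of the 15 libraries, in CPM on a linear axis that differs between panels. Points are libraries (WT blue, KO red), black bars are group means with SD. The IFITM genes are highest in cDC2 KO, where Ifitm3 averages 455 CPM, and Bst2 is highest in pDC KO at 267 CPM.

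Ordered by group mean, Ifitm1 and Ifitm2 had the same ranking of the 6 groups. For Ifitm2 it ran from cDC2 KO (81.0 ± 8.20 CPM, SD, n = 3) over cDC1 KO (44.8 ± 3.38, n = 2), cDC2 WT (17.7 ± 0.590, n = 2) and cDC1 WT (11.2 ± 2.72, n = 2) to pDC KO (2.92 ± 2.52, n = 3) and pDC WT (0.227 ± 0.393, n = 3). The cDC1 KO libraries thus held more Ifitm2 than the cDC2 WT libraries, and of the neighbours in that order only the 2 pDC groups overlapped. For Ifitm1 the last 3 groups, cDC1 WT, pDC KO and pDC WT, overlapped with their neighbours. For Ifitm3 and Ifitm6 the subset outweighed the genotype among conventional cells: both cDC2 groups lay above both cDC1 groups. Ifitm3 in cDC1 WT (38.2 ± 6.96 CPM) overlapped with pDC KO (37.0 ± 11.4). For Bst2, both pDC groups lay above all others, and cDC1 KO (49.3 ± 1.28) overlapped with cDC1 WT (47.3 ± 2.29).

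**Figure D2:**
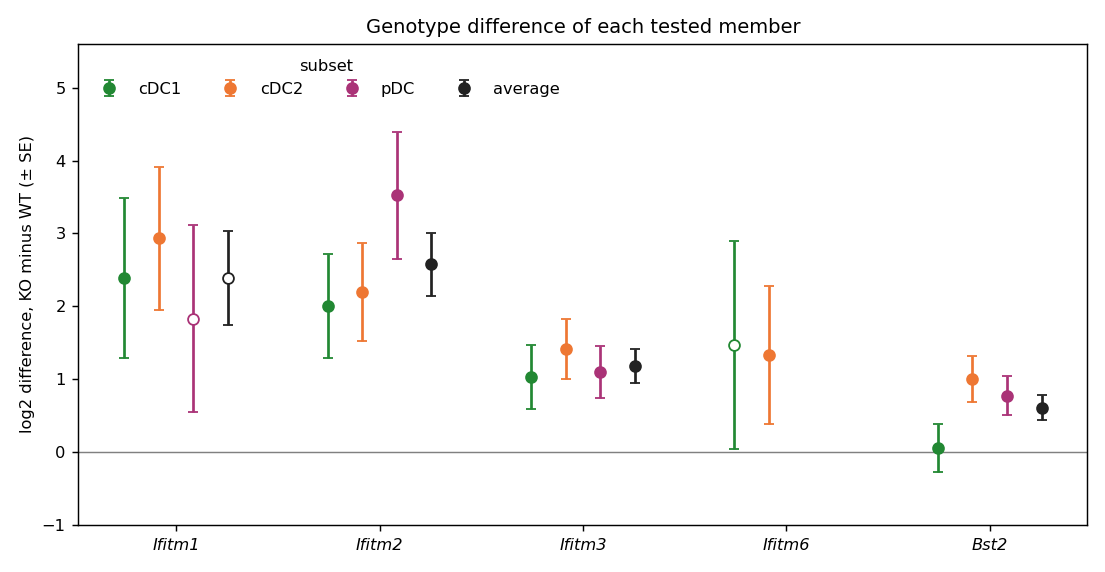
Fitted log2 difference between KO and WT (± SE) of each tested member, in each subset and averaged over the subsets. Open symbols rest on a group with 3 counts or fewer, and Ifitm6 in pDC and in the average is left out because the pDC WT group has 0 counts. All values drawn are above 0, and Bst2 in cDC1 is at 0.06 ± 0.33.

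In cDC1, 4 of the 5 tested members had every KO library above every WT library, as did 19.3% of all tested genes. In cDC2 all 5 did, against 23.1%, and in pDC 2 did (Ifitm3 and Bst2), against 5.76%. No member passed the threshold of 0.05 within a single subset by the quasi-likelihood test of edgeR, with p adjusted by Benjamini-Hochberg over 11746 genes. All tested genes called made up 0.0255% in cDC1, 0.119% in cDC2 and 0.0681% in pDC. At an unadjusted p under that value there were 3 of 5 members for cDC1, 4 for cDC2 and 4 for pDC, beside 3.83%, 13.3% and 10.6% of all tested genes. DESeq2 called 0, 1 and 1 members, beside 0.45%, 1.87% and 1.2% of the genes to which it gave an adjusted p. In cDC1 it gave one to 3999 genes, and Ifitm1, Ifitm2 and Ifitm6 were not among them. In the difference averaged over the 3 subsets with equal weight, Ifitm2 (2.57 ± 0.44, log2 ± SE) and Ifitm3 (1.18 ± 0.23) passed. That is 2 of 5 members, where 0.306% of genes passed and 0.238% passed as higher in KO. Since the members were chosen with such results in view, nothing is read from these shares. The call of Ifitm2 was kept in 9 of 15 fits that left out 1 library and that of Ifitm3 in 4 of 15, and length and GC offsets ended that of Ifitm3 (0.94). Bst2 averaged 0.61 ± 0.18 without passing.

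The genotype differences were set against each other between subsets as interaction terms, and no member was called in any of the 3. Among all genes 0.00851% were called for cDC2 against cDC1, 0% for pDC against cDC1 and 0% for pDC against cDC2. No member had an unadjusted p under 0.05 in these terms either, where 8.46%, 8.26% and 8.41% of genes did. DESeq2 called no member, and 0.424%, 0.897% and 0.333% of the genes to which it gave an adjusted p. The standard errors of the interactions were 0.53 to 0.59 for Ifitm3 on the log2 scale.

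Among WT libraries the IFITM genes and Bst2 split the subsets in opposite directions. Bst2 was higher in pDC than in cDC1 by 1.72 ± 0.32 (log2 ± SE; 3.29-fold) and than in cDC2 by 2.51 ± 0.33 (5.70-fold). Ifitm3 was lower in pDC than in cDC2 by a log2 difference of -3.31 ± 0.40 (9.90-fold) and than in cDC1 by -1.15 ± 0.40. The latter was -0.40 and no longer called with length and GC offsets (adjusted p = 0.460, edgeR). Ifitm2 was lower in pDC than in cDC2 by -6.08 ± 0.85 and than in cDC1 by -5.42 ± 0.86, against a pDC WT group with 6 counts. Ifitm6 had 0 counts in pDC WT, so its level in cDC2 WT was at least 60.9-fold higher than the floor of 3 counts. The ratio of Ifitm1 counts between cDC2 WT and pDC WT was 27.8, with a 95% counting interval of 8.80 to 141. Of the 5 members, 1 was called higher and 4 lower in pDC than in cDC2, where 23.6% of genes were called. Against cDC1, 1 was called higher and 2 lower in pDC, where 27.7% of genes were called. The members were chosen with earlier results of these data known, so nothing is read from these calls or shares.

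Between the conventional subsets, Ifitm3 was 4.47-fold higher in cDC2 WT than in cDC1 WT (2.16 ± 0.45, log2 ± SE). Ifitm6 had a count ratio of 24.5 (95% interval 8.09 to 121) in the same direction, resting on 3 counts in cDC1 WT. These 2 of 5 members were called, where 8.73% of genes were, and nothing is read from this share either. The call of Ifitm6 was kept in 6 of 15 fits without 1 library. Ifitm1 (1.47 ± 1.11) and Ifitm2 (0.66 ± 0.70) were not called. Bst2 was lower in cDC2 WT by -0.79 ± 0.34 without being called, and this turned to 0.17 with length and GC offsets. Over all genes, 440 were called higher and 585 lower in cDC2 WT, and with RLE scaling 548 and 500.

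The libraries also differed in how counts spread over transcripts, and the part of this in the genotype differences was not tested. The IFITM genes and Bst2 are short, with a longest transcript of 655 to 882 bases in Ifitm1, Ifitm2, Ifitm3, Ifitm6 and Bst2. Across genes, the deviation of a library from the mean correlated with transcript length at Spearman's rho of 0.182 and 0.158 in the 2 cDC2 WT libraries and -0.138 to -0.0302 in the cDC2 KO libraries. In cDC1 it was -0.179 and -0.140 in the KO libraries and -0.223 and -0.140 in the WT libraries. In pDC it was -0.0372, -0.00688 and 0.0775 in KO and 0.129, 0.0294 and 0.179 in WT, which overlapped but leaned the same way as in cDC2. The offsets moved the median cDC2 difference of all genes from 0.09 to -0.05. Beyond that shift, the offsets left Ifitm1 (2.44), Ifitm2 (1.52), Ifitm3 (0.81) and Ifitm6 (0.91) above 0 in cDC2.

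Monocytes, neutrophils and macrophages also express IFITM genes, so their markers were summed. The 16 monocyte and neutrophil markers summed to 142 to 184 CPM in cDC2 KO and 164 to 165 CPM in cDC2 WT, and to 130 to 133 CPM in cDC1 KO and 177 to 206 CPM in cDC1 WT. These sums overlapped in cDC2 and were lower in KO in cDC1. In pDC they were 481 to 774 CPM in KO and 376 to 619 CPM in WT, most of it from Ly6c2, which pDC express themselves. The 10 macrophage markers summed to 116 to 150 CPM in cDC2 KO against 104 to 124 in WT, and to 38.1 to 50.2 CPM in cDC1 KO against 20.2 to 27.4 in WT. Timd4, singled out after its values were seen, carried the higher KO sums, at 36.3 to 63.9 CPM in cDC2 KO against 6.78 to 7.53 in WT and 24.1 to 34.7 CPM in cDC1 KO against 6.33 to 7.10 in WT. Without it, the other 9 summed to 79.3 to 86.4 CPM in cDC2 KO against 96.4 to 117 in WT, and to 14.0 to 15.6 CPM in cDC1 KO against 13.1 to 21.1 in WT. Some single markers, singled out after their values were seen, differed more than the sums. In cDC2, S100a9 was at 3.05 to 4.07 CPM in KO and 0.971 to 1.36 in WT, and Fcgr1 at 14.7 to 17.9 against 1.66 to 7.28. In pDC KO 2, the library with all pDC KO counts of Ifitm1 and Ifitm6, S100a9 was at 7.22 CPM, S100a8 at 2.78, Ltf at 2.22 and Chil3 at 1.39. Ltf and Chil3 were at 0 in the other 5 pDC libraries, and S100a9 was at 0.450 and 2.28 CPM in the other KO libraries and 0 in the WT libraries. Of the same list, Retnlg, Csf3r, Mpo, Camp, Vcan and Cxcr2 were at 0 in pDC KO 2. Elane was at 0.694 CPM there against 0.903 to 1.81 in pDC WT, and Ngp at 1.11 CPM against 1.58 in pDC KO 3. Itgam, which encodes CD11b of myeloid cells and cDC2, was at 63.4 to 68.7 CPM in pDC KO against 2.97 to 7.81 in pDC WT, and at 9.92 and 13.1 CPM in cDC1 KO against 0.364 and 1.88 in cDC1 WT. In cDC2, which were sorted by CD11b, Itgam was at 161 to 260 CPM in KO against 102 and 105 in WT. Its KO libraries thus lay above the WT libraries in each subset. The 10 cDC2 markers, Itgam among them, summed to 798 to 884 CPM in pDC KO against 915 to 1290 in pDC WT. In cDC1 they summed to 336 to 380 CPM in KO and 341 to 518 in WT. Ccr2 (206 to 410 CPM against 425 to 846) and Cd209a (18.4 to 45.0 against 54.4 to 85.2) were lower in pDC KO. Without pDC KO 2, Ifitm3 differed by 0.85 and Ifitm2 by 2.85 in pDC on the log2 scale. The part of such cells in the results was not tested.

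Reads from the 4 clustered IFITM genes can be hard to assign. The longest run of identical bases shared by 2 transcripts was 69 (Ifitm2 and Ifitm3), followed by 64 (Ifitm1 and Ifitm3) and 40 (Ifitm1 and Ifitm2). In the last 200 bases, where 3′ tags fall, the longest shared run was 26 bases, between Ifitm2 and Ifitm3, and identity between the 4 genes was 52.3% to 60.1%. Ifitm2 also overlaps Gm45717 and Ifitm10 overlaps Gm49369 on the same strand, and neither of those models has a row in the table. The sources used here do not say how reads that fit several genes were counted.

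Of the 7 tested genes of other families within 100 kb of the IFITM cluster, none was called between genotypes in any subset or in the average. All tested genes called made up 0.0255% in cDC1, 0.119% in cDC2, 0.0681% in pDC and 0.306% in the average. At such shares, the lack of a call among so few genes says nothing of the neighbours. The 7 genes are Bet1l, Ric8a, Sirt3, Psmd13, Pgghg, Sigirr and Pkp3. Their median log2 differences were -0.14 in cDC1, 0.21 in cDC2, 0.29 in pDC and 0.11 in the average. The largest single value was that of Pkp3, which encodes a desmosomal plakophilin, at 1.95 ± 0.55 (SE) in cDC2. Around Bst2, 13 other genes were tested and none was called, beside the same shares. The nearest of them, Mvb12a, which encodes an ESCRT-I subunit, lies 5466 bases away and differed by 0.97 ± 0.28 in cDC2 and -0.02 ± 0.29 in cDC1. Those values lie beside the Bst2 values of 1.00 in cDC2 and 0.06 in cDC1. In pDC, Mvb12a differed by 0.34 ± 0.24. The 13 genes had a median of 0.52 in cDC2, with values from -0.74 to 0.99, and medians of 0.09 in cDC1 and 0.04 in pDC. Over all tested genes, the upper quartile in cDC2 was 0.61 and the 95 percentile 2.48, and the value of Mvb12a lay between them. Whether the values of Mvb12a and Bst2 are linked was not tested.

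**Figure D3:**
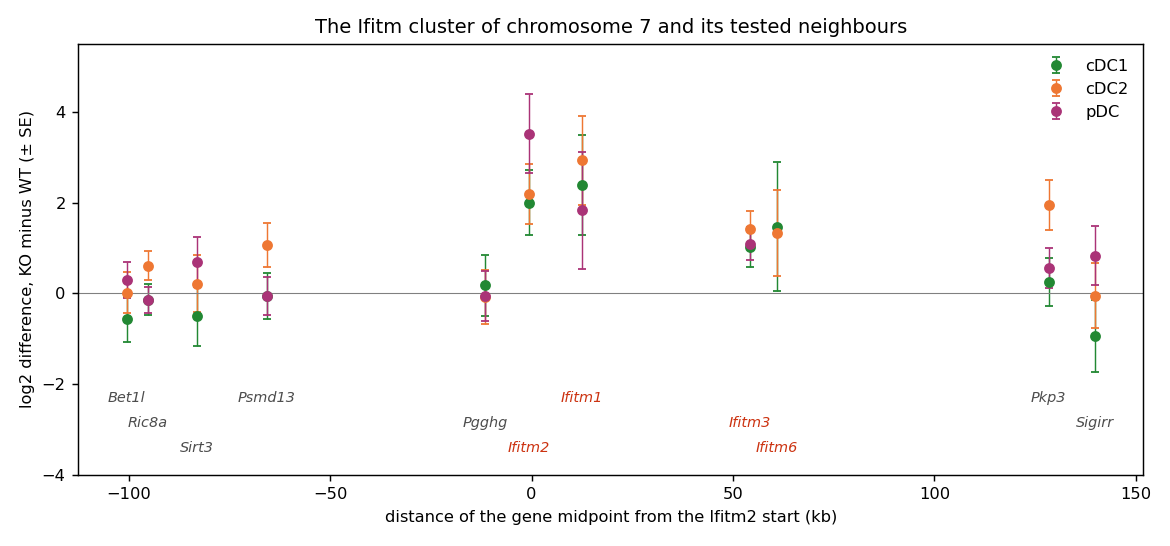
Fitted log2 difference between KO and WT (± SE) of the tested genes around the Ifitm cluster, by distance of the gene midpoint from the Ifitm2 start in kb. Ifitm6 in pDC is left out because the WT group has 0 counts. Ifitm5, with 73 counts in all and 0 in cDC2 WT and in pDC, is left out (-0.44 in cDC1). The 4 other IFITM genes have values above 0 in each subset drawn, and the 7 neighbours lie between -0.94 (Sigirr in cDC1) and 1.95 (Pkp3 in cDC2).

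Other interferon-stimulated genes were read from a list of 34, all tested. This list was also compiled with earlier results of these data known. Its calls and shares, here and between WT subsets, are therefore descriptions, and nothing is read from the shares. By the same edgeR test and adjustment, 0 passed in cDC1, 1 in cDC2 and 0 in pDC, beside 0.0255%, 0.119% and 0.0681% of all tested genes. DESeq2 called 0, 3 and 3 (0.45%, 1.87% and 1.2% of all genes), and 3, 13 and 14 had an unadjusted p under 0.05 (3.83%, 13.3% and 10.6% of all genes). The gene that rose in cDC2 KO was Ifi27l2a, which encodes a small mitochondrial interferon-induced protein, at 282 ± 23.0 CPM (SD, n = 3) against 91.1 ± 10.3 (n = 2). Its log2 difference was 1.63 ± 0.30 (SE, adjusted p = 0.0496, edgeR), and the call was lost with RLE scaling (adjusted p = 0.0518) and with length and GC offsets (0.95, adjusted p = 0.254). It was kept in 4 of 15 fits without 1 library, those without pDC KO 3 or any single one of the 3 pDC WT libraries. In the average over subsets, 4 of 34 passed, all higher in KO, where 0.306% of all tested genes passed. These were Ifit1 (1.15 ± 0.20, adjusted p = 0.0196), a sensor of foreign RNA caps, Isg15 (1.06 ± 0.21, adjusted p = 0.0363), a ubiquitin-like modifier, Ifi27l2a (0.85 ± 0.17, adjusted p = 0.0363) and Rsad2 (0.87 ± 0.17, adjusted p = 0.0364), which encodes viperin. Leaving out 1 library at a time kept the call of Ifit1 in 8 of 15 fits and those of Isg15, Rsad2 and Ifi27l2a in 3, 3 and 2. None of the 4 was called without cDC2 KO 1, cDC2 KO 2, cDC2 WT 1 or any cDC1 library. Offsets for length and GC content kept Ifit1 (1.11) and Rsad2 (0.88) and ended the calls of Isg15 (0.79) and Ifi27l2a (0.58), while RLE scaling ended that of Rsad2 (adjusted p = 0.0525, edgeR).

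Most of the list lay on the KO side without passing. The log2 difference was above 0 in 31 of 34 genes in cDC1, 29 in cDC2, 29 in pDC and 33 in the average. The median of the list was 0.39 in cDC1, 0.67 in cDC2, 0.66 in pDC and 0.61 in the average, beside medians over all tested genes of 0.00, 0.09, 0.00 and 0.05. The median in cDC1 ran from 0.10 to 0.76 when 1 library was left out. Members and list thus lay on the same side, with Ifitm1 and Ifitm2 beyond the highest list value in cDC1 and cDC2. Since the list was compiled with earlier results of these data known, this too is a description.

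**Figure D4:**
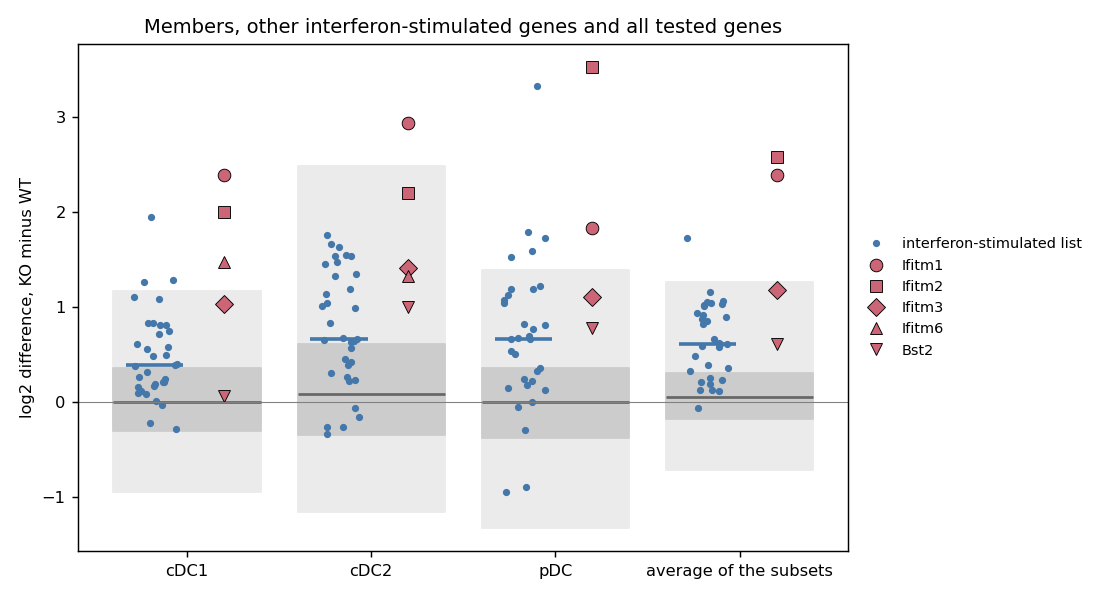
Log2 difference between KO and WT of the members (red), of the 34 other interferon-stimulated genes (blue points, bar at the median of all 34) and of all tested genes (grey: median, interquartile range and a band from the 5 to the 95 percentile). Genes with a group at 0 counts are not drawn. The list medians lie between 0.39 and 0.67, above the medians of all genes, which lie between 0.00 and 0.09.

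Of the 17 interferon receptors and signalling genes, none passed in a genotype comparison by edgeR, while DESeq2 called 0 in cDC1, 0 in cDC2, 1 in pDC and 1 in the average (1.13% of all genes in the average). The smallest p belonged to Irf7, the transcription factor that amplifies interferon production in pDC. It was at 301 ± 27.7 CPM in pDC KO against 111 ± 33.2 in pDC WT (SD, n = 3 each), 1.44 ± 0.28 on the log2 scale (SE, adjusted p = 0.0865, edgeR). Its average over the subsets was 0.85 ± 0.18 (adjusted p = 0.0621, edgeR). Of 15 tested other restriction factors, none passed in a genotype comparison by edgeR, and DESeq2 called 0 in cDC1, 2 in cDC2, 0 in pDC and 0 in the average. Mov10, an RNA helicase, had the largest average of those named by smallest p, at 0.93 ± 0.26 (SE, adjusted p = 0.187). The 8 genes of IFITM and tetherin partners include the ubiquitin ligase Nedd4 and the palmitoyl transferase Zdhhc20. In the genotype comparisons they had 0 calls by edgeR and 0 by DESeq2. At an unadjusted p under 0.05 there were, in cDC1, cDC2, pDC and the average, 1, 2, 4 and 2 signalling genes, 2, 4, 2 and 5 restriction factors, and 0, 1, 0 and 0 partners. Over all tested genes these shares were 3.83%, 13.3%, 10.6% and 10.2%, and several of the counts are near them.

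Between pDC WT and cDC2 WT, where 23.6% of all tested genes were called, 23 of the 34 interferon-stimulated genes were lower in pDC and 2 were higher (Trim30a and Ifi47). Without cDC2 WT 2, the 25 calls became 16. Ifit1 was at 10.2 ± 1.62 CPM in pDC WT (SD, n = 3) against 119 ± 47.4 in cDC2 WT (n = 2), a log2 difference of -3.55 ± 0.35 (SE, adjusted p = 1.18e-06, edgeR). The IFITM genes shared this direction, and Bst2 had the opposite one. The receptor subunits of type I interferon rose from cDC2 to pDC, Ifnar1 by 1.44 ± 0.28 and Ifnar2 by 2.51 ± 0.41 (adjusted p = 0.000992 and 0.000233, edgeR). Those of interferon gamma fell, Ifngr1 with -3.23 ± 0.62 and Ifngr2 with -2.20 ± 0.54 (adjusted p = 0.00130 and 0.00620, edgeR). Without cDC2 WT 1, Ifngr2 (-1.13) and Zc3hav1 (-0.91) were no longer called. Among other restriction factors, the retroviral restriction factors Serinc3 (2.40 ± 0.31), Serinc5 (4.19 ± 0.59) and Apobec3 (1.80 ± 0.29) were higher in pDC WT and Zc3hav1, Gbp5, Mov10 and Gbp2 were lower. Of the 8 partners, 2 were called higher and 0 lower in pDC WT by edgeR.

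The genes most like each member over the 15 libraries were found by Pearson's r of log2 CPM among 7635 genes. The libraries share subset, genotype and depth, so these values describe the same 6 groups again. Ifitm3 was closest to Ifit1 (r = 0.96, Spearman's rho = 0.975), and so was Ifitm6 (r = 0.96, rho = 0.945). Ifitm2 was closest to Il1b, an inflammatory cytokine (r = 0.97, rho = 0.982), then to Gm49342 and Marcksl1 (r = 0.96 each). Isg15 was at rank 4 for Ifitm2 (r = 0.95). Ifitm1 was closest to Specc1, then to Limd2 (r = 0.92 each). Isg15 was at rank 3 for Ifitm1 (r = 0.92) but at rank 20 by rho. Bst2 was closest to Gna11 (r = 0.97, rho = 0.754) and Plac8 (r = 0.97, rho = 0.975), with Tyrobp, an adaptor of pDC receptors, at rank 5 (r = 0.96, rho = 0.982). The 4 tested IFITM genes correlated with each other at r = 0.80 to 0.94 and with Bst2 at r = -0.69 to -0.57.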

How the data were processed

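Strand-specific 3′ RNA libraries were made from barcoded oligo-dT primers with 12 cycles of PCR, per the labels' protocols, which name no molecular identifiers. The authors deposited raw read counts per gene, 1 column for each of 15 libraries, with no normalization, and a check found only whole numbers. STAR, HTSeq, DESeq2 and mm10 are named in the submitters' processing notes. The sources used here do not give their roles, versions or settings.

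Genes were filtered with filterByExpr on the 6 groups, which kept 11746 of 22165 genes. Libraries were scaled by TMM, with factors of 0.841 to 1.08. All 15 libraries entered a robust quasi-likelihood fit with a term for each group in edgeR 4.0.16 (R 4.3.3, common biological coefficient of variation 0.395). P-values are two-sided and adjusted over all tested genes, with a threshold of 0.05. All groups share the estimate of the spread, which the groups of 2 depend on. Depth was 3928164 to 12142712 counts. Floors of 3 counts and 95% intervals cover counting error only.

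GENCODE M21 gave positions and matched 21745 of the IDs to symbols. RefSeq promoter windows (GRCm38.p6) matched all 6 members. Members and gene lists were chosen with earlier results of these data known. The text names all members, Stk11, listed genes past the threshold or up to 4 with the smallest p per list, the 5 genes most like each member with a mean log2 CPM of at least 3, and genes within 100 kb. From these it gives those that carry a comparison. Alternatives were RLE scaling, DESeq2 1.42.0, no filter, a strict filter at 10 CPM, the replicate number as a block, offsets of each library for length and GC of transcripts, and leaving out each library.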

Additional observations from a re-analysis of the deposited data

How the results depend on the processing

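No called difference of a member or named gene turned direction under any alternative. Differences that were not called could turn, as that of Bst2 between cDC2 WT and cDC1 WT did with length and GC offsets (0.17). The counts of called genes moved with the tool and the filter. In cDC1, cDC2, pDC and the average, the 3, 14, 8 and 36 genes became 18, 220, 138 and 133 with DESeq2 and 28, 177, 203 and 166 without a filter. The 3 interactions (cDC2 against cDC1, pDC against cDC1, pDC against cDC2), with 1, 0 and 0 genes, gave 42, 91 and 36 with DESeq2 and 38, 118 and 88 without a filter. RLE scaling gave 1 in cDC1 and 5 in cDC2, and the strict filter 1 in cDC1. The 1025 genes between cDC2 WT and cDC1 WT became 1686 with DESeq2 and 672 with length and GC offsets. The offsets gave 1, 4 and 21 in cDC1, cDC2 and the average and 0 for the first interaction. The replicate block gave 1, 7, 3 and 19 in cDC1, cDC2, pDC and the average and 0 for the first interaction, and ended the calls of Ifitm2 (adjusted p = 0.0678), Rsad2 (0.0730) and Ifi27l2a (0.0516) in the average, of Ifitm6 between cDC2 WT and cDC1 WT (0.0544), and of Ifi27l2a in cDC2 (0.0539). The cause was not tested. Same-numbered libraries of different groups correlated in their deviations at -0.182 to 0.179, and others at -0.274 to 0.274. Deviations were taken from group means, so those of a group of 2 mirror each other and part of these ranges is fixed. The values therefore cannot decide whether replicate numbers pair the samples.

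Without 1 library, the counts ran from 1 to 5 in cDC1, 1 to 26 in cDC2, 4 to 22 in pDC and 5 to 50 in the average. They ran from 253 to 1240 for cDC2 WT against cDC1 WT, 1692 to 3436 for pDC WT against cDC1 WT, 2105 to 2919 for pDC WT against cDC2 WT, and 0 to 2, 0 to 2 and 0 to 1 for the interactions. The call of Ifitm2 in the average was lost without cDC2 KO 2, cDC2 WT 1 or any cDC1 library. That of Ifitm3 was kept only without pDC KO 3 or 1 of the pDC WT libraries. The calls of Bst2 between pDC WT and both other WT subsets were kept in all 21 alternatives. As with the other members, no test is read from these calls. Ifitm3 between pDC WT and cDC1 WT lost its call with length and GC offsets (adjusted p = 0.460) and without cDC1 WT 1, cDC1 WT 2 or pDC WT 3, and between cDC2 WT and cDC1 WT without cDC1 WT 1. Ifitm1 between pDC WT and cDC2 WT lost its call without cDC2 WT 2. Depth limits Ifitm1, Ifitm2 and Ifitm6 in pDC, Ifitm6 in cDC1, and Ifitm10 everywhere.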

Other observations

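Of the other family members in the table, Ifitm5, the bone-restricted member, had 73 counts in all. It was at 1.57, 1.28 and 3.48 CPM in the cDC2 KO libraries and at 0 in both cDC2 WT libraries. In cDC1 it was at 1.18 and 0.438 CPM in KO and 1.88 and 0.364 CPM in WT, and it was at 0 in all 6 pDC libraries. The low counts and the unknown counting of reads that fit several genes limit what these values show. Bases shared between Ifitm5 and the members were not measured. Ifitm7, on chromosome 16, had 1 count, in cDC1 WT 1.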
